A study of Homo sapiens with 16 samples.

Results

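The NRF2 antioxidant pathway was examined in LX-2 cells through 9 of its genes: NFE2L2, which encodes the transcription factor NRF2 itself, HMOX1, NQO1, GCLC, GCLM, SRXN1, TXNRD1, TXNIP and SQSTM1. The genes were taken by name and matched to GENCODE release 44 on hg38. The measurement was acetylation of histone H3 at lysine 27 (H3K27ac), a mark of active promoters and enhancers, by chromatin immunoprecipitation and sequencing (ChIP-seq). LX-2 is an established line of human hepatic stellate cells with myofibroblast features, cultured in medium with fetal bovine serum. Control cells received vehicle (DMSO) and treated cells 50 µM OSMI-1 for 24 h, an inhibitor of O-GlcNAc transferase (OGT), called OGTi below. Each arm had 4 H3K27ac replicates, and all come from this single cell line, whose identity cannot be checked against marker genes because no expression level was part of the files. The other 8 of the 16 samples, input DNA and column purified chromatin, were not analysed here.

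The values available were positions only: 3507 regions that lost H3K27ac under OGTi and 3623 regions that gained it, 7130 in all. A region was given to a gene when any of its bases lay in the gene body or within 100 kb of the gene's 5′ end. By this rule, 19 of the 7130 regions belonged to the 9 genes. The lists carry no signal, fold change or replicate value, so the size of a change and its spread between the 4 replicates cannot be given for any region. The counts below are therefore descriptions without a test, read against the same counts over 20033 protein-coding genes. The 9 genes, and the pathway lists further below, were chosen with earlier results of these data known. A difference from that background is thus no independent evidence of an excess.

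In unstressed cells, NRF2 is bound by KEAP1 and handed to a ubiquitin ligase for degradation. Oxidants and electrophiles modify KEAP1, NRF2 then accumulates, pairs with a small MAF protein and binds the antioxidant response element (ARE), which activates genes of glutathione, thioredoxin, haem and quinone metabolism. BACH1 competes for the same elements as a repressor. In the liver this pathway is best known for protection against toxic metabolites.

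Almost all listed regions at these genes were gained. Of the 19 regions, 17 gained H3K27ac under OGTi (89.5%, against 50.8% of all listed regions) and 2 lost it. Gained regions belonged to 6 of the 9 genes, namely TXNRD1 with 6, HMOX1 with 4, NQO1 with 3, NFE2L2 with 2, and TXNIP and SQSTM1 with 1 each. Over protein-coding genes, 30.5% had a gained region by this rule. Lost regions belonged to TXNRD1 and TXNIP, that is 2 of 9 genes, close to the 21.6% of protein-coding genes with a lost region. A gained and no lost region was found for 4 of the 9 genes (HMOX1, NQO1, NFE2L2 and SQSTM1) and for 23.3% of protein-coding genes. GCLC, GCLM and SRXN1 had no listed region. Per gene, the 9 genes had 1.89 gained and 0.222 lost regions, and protein-coding genes 0.487 and 0.382. The share over protein-coding genes includes silent genes, which lack an acetylated promoter but can be given a neighbour's region by the 100 kb rule. Acetylated regions outside both lists were not used here.

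**Figure D1:**
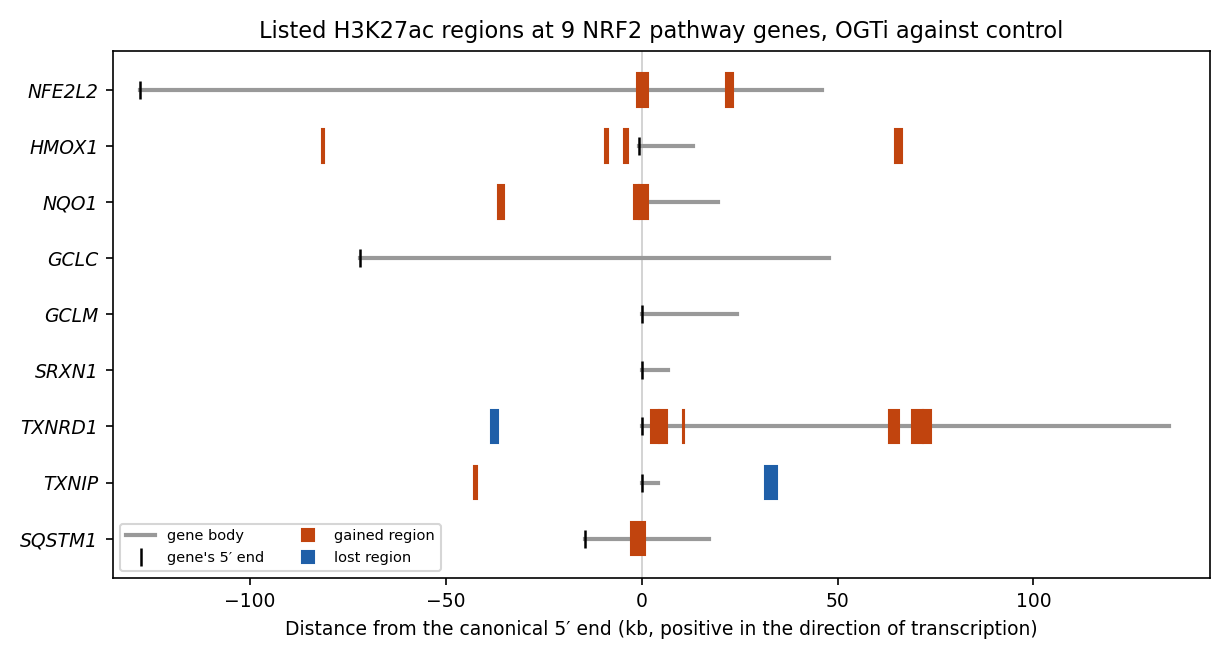
Listed H3K27ac regions at the 9 genes, drawn to scale along the gene (x axis, kb from the 5′ end of the canonical transcript, 1 gene per line). Grey lines are gene bodies, black ticks the gene's outermost 5′ end, orange boxes the 17 gained and blue boxes the 2 lost regions, and GCLC, GCLM and SRXN1 carry none.

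The gained regions also lay close to transcription start sites. A gained region within 2500 bp of the 5′ end of an annotated transcript was present at 4 of the 9 genes (NFE2L2, NQO1, TXNRD1 and SQSTM1), against 8.21% of protein-coding genes. None of the 9 had a lost region there, against 3.37% of protein-coding genes, a share at which a count of 0 among 9 genes carries little information. Counting from any transcript was chosen after seeing the data. Within 2500 bp of the gene's own 5′ end, 2 of the 9 genes (NQO1 and TXNRD1) had a gained region, against 6.39% of protein-coding genes. Genes with many annotated transcripts, such as NFE2L2 with 65, also have more 5′ ends to count from, and the background was not matched for this. Several of the 9 genes have start sites far apart. The 5′ end of the canonical transcript, the reference transcript of the annotation, lies 128029 bp inside the gene model of NFE2L2, 71869 bp inside that of GCLC and 14507 bp inside that of SQSTM1. Distances below are therefore from the canonical 5′ end. A gained region was nearer than a lost one for 7 of the 9 genes, as for 59.6% of protein-coding genes. The median distance to the nearest gained region was 3.47 kb for the 9 genes and 235 kb for protein-coding genes, while the median distance to the nearest lost region was 202 kb and 360 kb.

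HMOX1 encodes haem oxygenase 1, which degrades haem to biliverdin, iron and carbon monoxide. It is on the plus strand of chromosome 22 (35380361 to 35394214), and its start site carried no listed region. Instead, 2 gained regions lay upstream, at chr22:35371628-35372508 (881 bp wide, ending 8588 bp before the canonical 5′ end) and chr22:35376685-35377624 (940 bp, ending 3472 bp before it). HMOX1 was the nearest protein-coding gene for both. Of its other gained regions, that 80971 bp upstream overlapped a 5′ end of TOM1 and that 64648 bp downstream was nearest to MCM5, so that neither can be given to HMOX1 by proximity. The rule's count of 4 gained regions, these 2 included, was reached by 1.76% of protein-coding genes. The nearest lost region was 246 kb away.

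The region farther upstream of HMOX1 held a tandem repeat of the ARE. The core TGACNNNGC (N is any base) was searched on both strands and matched 4 times within 96 bp, each match 29 bp from the next. As many as 4 matches were found in 1.08% of 185 gained regions of like width (within 10%). That set includes this region, which was picked for its number of matches, so the share is no measure of rarity. The windows of 29 bases around the 4 matches abut one another and share 65.5% to 82.8% of their bases pairwise. They are shown because this region held the most matches of any at the 9 genes, from hg38, 5′ to 3′ on the minus strand, with the match in capitals and 10 flanking bases on each side:
HMOX1 match at chr22:35372106-35372114: ctctagaccgTGACTCAGCgaaaacagac
HMOX1 match at chr22:35372077-35372085: accgggaccgTGACTCAGCgaaaacagat
HMOX1 match at chr22:35372048-35372056: ctcggggcggTGACTTAGCgaaaatagac
HMOX1 match at chr22:35372019-35372027: ctcgggaccgTGACTCAGCaggaaaaaca

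Of these 4 matches, 3 read TGACTCAGC, which also contains the AP-1 motif TGANTCA. The other differs from it within the N positions and does not match AP-1. The gained region nearer to HMOX1 held 2 matches, 4004 and 3940 bp upstream of the canonical 5′ end, also on the minus strand:
HMOX1 match at chr22:35377156-35377164: gaggcactggTGACTCAGCaaaatctagc
HMOX1 match at chr22:35377092-35377100: ctcccaaacaTGACGCAGCagaaatgcag

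NQO1 encodes a quinone reductase that prevents redox cycling of quinones and is among the best known ARE genes. It is on the minus strand of chromosome 16 (69706996 to 69726668). A gained region of 2340 bp covered its start site (chr16:69724919-69727258), and a second of 1340 bp abutted it upstream (chr16:69727259-69728598), so that acetylation was gained without a gap over both. The remaining gained region, 35211 bp upstream, overlapped a 5′ end of WWP2. It held 3 ARE core matches within 27 bp, on both strands and in part overlapping. As many were found in 1.70% of 412 gained regions of like width, this one included. None of these 3 read TGACTCAGC. The region over the start site held a single ARE match, 455 bp upstream of the canonical 5′ end, and it again read TGACTCAGC on the minus strand:
NQO1 match at chr16:69727007-69727015: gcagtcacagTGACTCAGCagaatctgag

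SQSTM1 encodes p62, an autophagy receptor that binds KEAP1. It is on the plus strand of chromosome 5 (179806398 to 179838078). Its gained region (chr5:179818189-179821800) was 3612 bp wide, wider than 99.7% of the gained list, and covered the canonical 5′ end. The nearest lost region lay 544 kb away. The gained region held 2 ARE matches, at 1320 and 352 bp upstream of the canonical 5′ end, and both read TGACTCAGC on the minus strand:
SQSTM1 match at chr5:179819585-179819593: tggccaagcgTGACTCAGCagcccaggcg
SQSTM1 match at chr5:179820553-179820561: ggcctggccaTGACTCAGCaatatcctca

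TXNRD1 encodes cytosolic thioredoxin reductase, a selenoprotein that keeps thioredoxin reduced with electrons from NADPH. It lies on the plus strand of chromosome 12 (104215779 to 104350307) and had the most gained regions of the 9 genes. Only 0.534% of protein-coding genes had as many as 6, though the rule counts abutting regions separately and takes in the whole gene body. TXNRD1 is 134.5 kb long, against a median of 27.5 kb over protein-coding genes. Of its 6 gained regions, 3 lay in intron 1, with their near edges 2348, 4348 and 10517 bp inside the gene, the nearest pair of them abutting. The other 3 lay in intron 3 of the canonical transcript, 63207 to 71829 bp inside the gene, around the start sites of shorter transcripts. A pair of abutting gained regions there (chr12:104284768-104287607 and chr12:104287608-104289629) each covered an inner 5′ end. All 6 had TXNRD1 as the nearest protein-coding gene. The single lost region of TXNRD1 (chr12:104177223-104179049) lay 36730 bp upstream of the gene, in sequence without a protein-coding gene, and had TXNRD1 as its nearest one as well.

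The gained regions of TXNRD1 held 6 ARE matches, 5 of them in the 3 regions of intron 3. The match 71151 bp inside the gene lay upstream of an inner start site of RefSeq, and that 64490 bp inside the gene was the only one at TXNRD1 that read TGACTCAGC. They are given on the minus and the plus strand, respectively:
TXNRD1 match at chr12:104286930-104286938: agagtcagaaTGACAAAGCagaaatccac
TXNRD1 match at chr12:104280269-104280277: gtgacctccaTGACTCAGCccttacctta

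NFE2L2 encodes NRF2 itself. On the minus strand of chromosome 2 (177218667 to 177392756), it had a gained region of 2821 bp over the canonical 5′ end (chr2:177263059-177265879) and another of 2000 bp in intron 1 (chr2:177241303-177243302), 21425 bp downstream of that end. The 5′ region was rich in CpG, with a CpG observed/expected ratio of 0.888, the highest of the 19 regions, whereas the intronic region had 0.118. When the 100 kb were counted from the canonical 5′ end, 2 more gained regions were reached (97733 and 50860 bp downstream), both nearest to HNRNPA3. The nearest lost region lay 2291 kb away, and 92.6% of protein-coding genes had one as near as that or nearer. The 3 ARE matches over the 5′ end, at 646, 786 and 1106 bp inside the gene, did not overlap AP-1 matches. They are given on the plus strand for the first and second line and on the minus strand for the last:
NFE2L2 match at chr2:177264073-177264081: agcggccccgTGACTAGGCacatttttgc
NFE2L2 match at chr2:177263933-177263941: gagagatggaTGACTTCGCaaagccgcgc
NFE2L2 match at chr2:177263613-177263621: ttggcttccgTGACAGCGCtcggttggcc

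**Figure D2:**
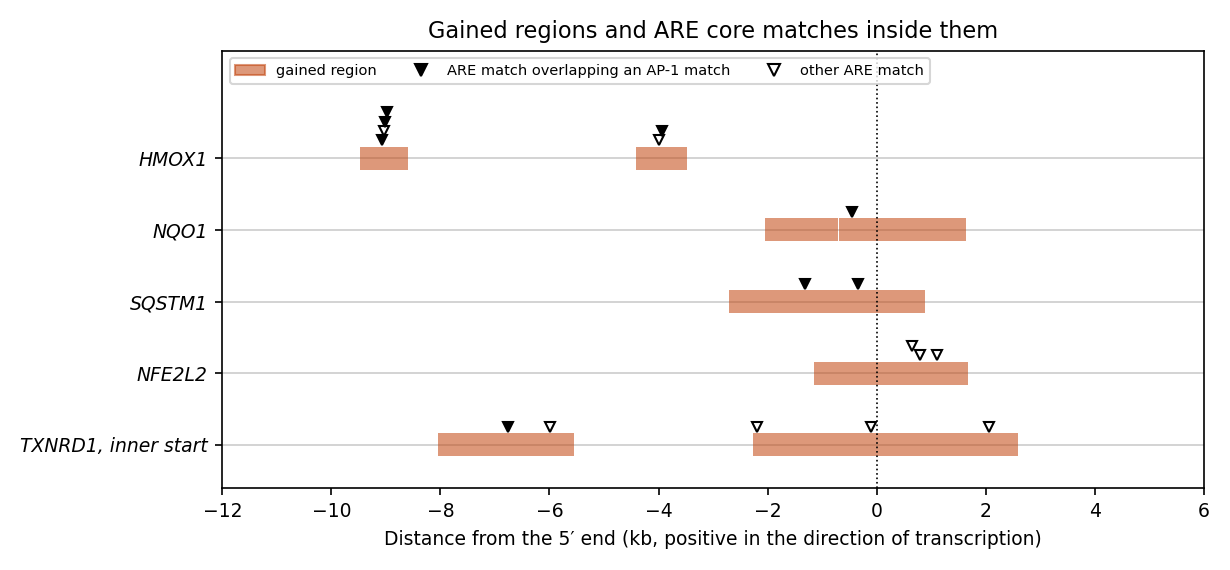
Gained regions (orange boxes) and ARE core matches inside them (triangles, stacked where close; filled where an AP-1 match overlaps) from 12 kb upstream to 6 kb downstream of a 5′ end (x axis, kb). The 5′ end is the canonical one for HMOX1, NQO1, SQSTM1 and NFE2L2 and an inner RefSeq start for TXNRD1, and the filled matches of NQO1 and SQSTM1 lie within 1320 bp upstream of it.

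TXNIP encodes the thioredoxin-binding arrestin that restrains glucose uptake. Unlike most of the genes above, it is a target of the glucose-sensing factors MondoA and ChREBP rather than an archetypal ARE gene. On the minus strand of chromosome 1 (145992435 to 145996579), it had no region in or at the gene. A gained region (813 bp) lay 42057 bp upstream, 1890 bp from a 5′ end of HJV, and a lost region (2892 bp) lay 31582 bp downstream of its 5′ end, over a 5′ end of ANKRD34A. By the same rule, these regions belonged to 5 and 11 protein-coding genes. TXNIP was thus the only 1 of the 6 genes with regions for which a neighbour was nearer in every case.

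GCLC and GCLM encode the catalytic and modifier subunits of glutamate-cysteine ligase, the rate-limiting enzyme of glutathione synthesis, and SRXN1 encodes sulfiredoxin, which repairs overoxidised peroxiredoxins. Although all 3 are standard ARE genes, none had a listed region. The nearest gained region was 207 kb from the canonical 5′ end of GCLC, 205 kb from that of GCLM and 109 kb from that of SRXN1. Of protein-coding genes, 46.5%, 46.2% and 31.1% had a gained region as near as that or nearer. The nearest lost regions lay at 217, 110 and 202 kb. A gene without a listed region is not shown to be unchanged, since a change under the detection limit of the lists and the absence of an acetylated peak look the same in these files.

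Counts in widening windows showed how the difference from protein-coding genes changed with distance. Within 25 kb of the canonical 5′ ends there were 10 gained and no lost regions at the 9 genes, or 1.11 gained regions per gene against 0.159 over protein-coding genes. Within 100 kb there were 19 and 2. Within 250 kb lost regions were more frequent than over protein-coding genes as well (14 in all, 1.56 against 0.873 per gene), and within 1000 kb there were 41 gained and 45 lost regions, or 4.56 and 5 per gene against 3.73 and 3.41.

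**Figure D3:**
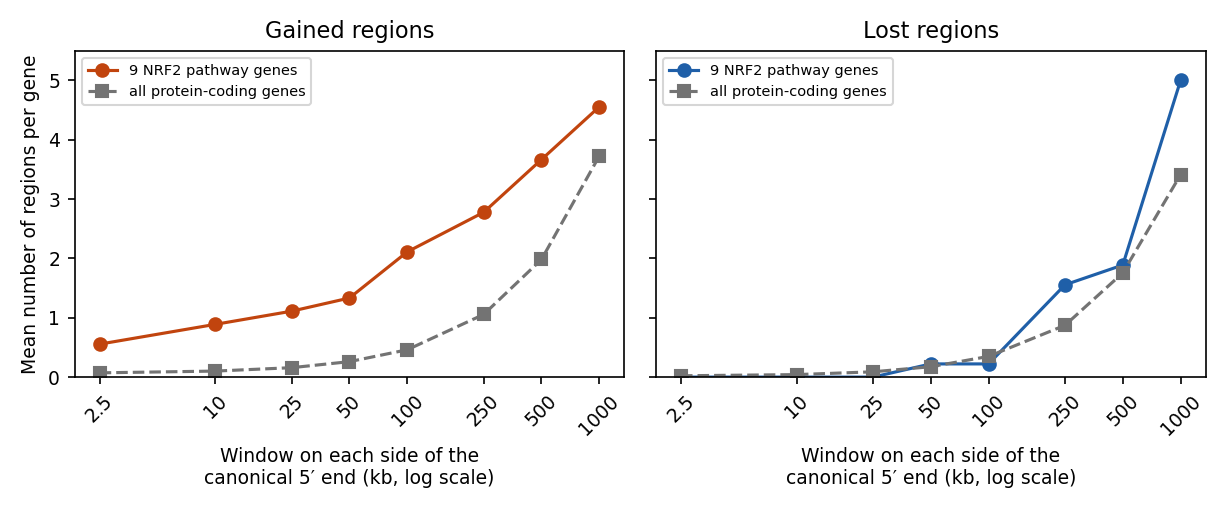
Mean number of gained (left) and lost (right) regions per gene (y axis) in windows of 2.5 to 1000 kb on each side of the canonical 5′ end (x axis, log scale). Gained regions at the 9 genes (solid line) number 0.556 per gene within 2.5 kb, against 0.0717 for protein-coding genes (dashed line), and lost regions number 0.222 per gene within 100 kb, against 0.349.

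The sequence of the 17 gained regions was then compared with that of the whole gained list. Their median width was 2000 bp (345 to 3612 bp), against 1697 bp over all gained regions, and their median GC content was 52.8% against 46.1%. The ARE core was present in 13 of 17 gained regions (76.5%, Wilson 95% interval 52.7% to 90.4%), in 47.0% of all gained regions (45.4% to 48.6%) and in 48.0% of all lost regions (46.4% to 49.7%). These intervals cover counting error only and treat abutting regions as independent. Matches numbered 0.792 per kb at the 9 genes and 0.431 per kb over all gained regions. In the central 1000 bp, the same length for every region wide enough, 6 of 12 gained regions at the 9 genes and 37.1% of 2873 gained regions held the core. The difference in the centres was thus smaller than over whole regions. The 4 gained regions without a match were 1 each of NFE2L2 and NQO1 and 2 of TXNRD1.

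The ARE core that also contains AP-1, TGACTCAGC, was picked out after the matches had been seen. It was present in 5 of 17 gained regions (29.4%, Wilson 95% interval 13.3% to 53.1%), which belonged to HMOX1, NQO1, TXNRD1 and SQSTM1, against 5.55% of all gained regions (4.85% to 6.34%) and 4.96% of all lost regions. It made up 8 of the 24 matches in the gained regions, compared with 9.57% of ARE matches in the gained list. Of these 8, 3 are copies in the tandem repeat of HMOX1 and 2 lie in the single region of SQSTM1, so the matches are not independent. AP-1 itself was no more frequent at these genes (9 of 17 regions, 52.9%) than in the gained list (53.6%). The TEAD core CATTCC, the motif of the factors followed by the study, was present in 7 of 17 gained regions (41.2%, interval 21.6% to 64.0%), 58.8% of all gained and 73.5% of all lost regions. Both lost regions at the 9 genes held it. The E-box CACGTG was present in 6 of the 17 (35.3%) and in 22.2% of all gained regions.

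**Figure D4:**
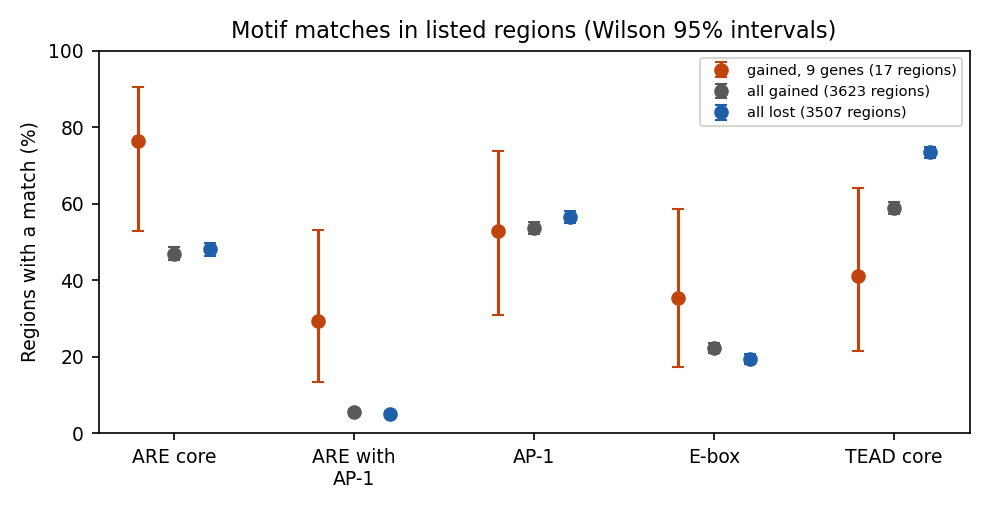
Share of regions with at least 1 match to each motif (y axis, %) in the 17 gained regions at the 9 genes, all gained and all lost regions, with Wilson 95% intervals as bars. The intervals of the first group overlap those of the gained list for AP-1, E-box and TEAD, and lie above them for the ARE core and for the ARE with AP-1. This is not a test, because the intervals treat abutting regions as independent and the ARE with AP-1 was picked out after its matches had been seen. The 17 regions are also wider than the gained list (median 2000 bp against 1697 bp).

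RefSeq promoters of 300 bases, from 250 before to 50 after a start site, were at hand for 8 of the 9 genes (GRCh38.p14). These genes had 13 such promoters, as some have several start sites. The ARE core matched in 3 of the 13, namely that of GCLM and both of TXNRD1, against 13.3% of 35116 promoters. AP-1, TGACTCAGC and the E-box matched in none, against 7.71%, 0.561% and 7.26% of promoters. The TGACTCAGC matches of NQO1 and SQSTM1 lie farther upstream than these windows reach, and no match says only that the letters are not in the window.

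Another 104 genes, of the pathway or of related redox functions, were counted by the same rules, in 7 lists of 8 to 25 genes. Differences between these lists therefore rest on few genes. Gained regions belonged to 36 of them (34.6%, against 30.5% of protein-coding genes) and lost regions to 22 (21.2%, against 21.6%), so that at 100 kb these genes were close to the background. Near transcript 5′ ends they were less so, with gained regions within 2500 bp at 20 of 104 genes (19.2%, against 8.21%) and lost regions at 3 (2.88%, against 3.37%). Within 2500 bp of the gene's own 5′ end, 14 of the 104 genes had a gained region, against 6.39% of protein-coding genes. Counting from any transcript was chosen after seeing the data, and the background includes silent genes without an acetylated promoter. Of the 24 gained regions within 2500 bp of a transcript 5′ end, 17 held an ARE core and 6 an ARE core that overlaps AP-1. Of all gained regions, 47.0% and 5.55% did, but the 24 were not matched to that list by width or place. The core was more frequent in wider regions, with 54.8% of gained regions of like width to 2000 bp and 63.9% to 2493 bp. Whether the 24 differ from gained regions of like width and place was not tested.

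Among the regulators and partners of NRF2 (12 genes), 4 had a gained region at a transcript 5′ end and none a lost one. The shares over protein-coding genes were 8.21% and 3.37%. The repressor BACH1 had 8 gained regions, the most of any gene counted here, though its gene model of 437 kb is counted whole. They included 1 over its canonical 5′ end (chromosome 21, 29298363 to 29300386). MAFF, a small MAF partner, had 5, of which 38201388 to 38203550 on chromosome 22 covered its canonical start. MAFG had 3 gained and 1 lost region, none at its 5′ end. RBX1, a subunit of the ligase that degrades NRF2, had a gained region over its start. KEAP1 and CUL3, the remaining parts of that ligase, had no listed region.

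In glutathione metabolism (25 genes), 4 genes had a gained region within 2500 bp of a transcript 5′ end (16%, against 8.21% of protein-coding genes). Among them were SLC7A11 (chromosome 4, 138241111 to 138243205), the cystine importer that feeds glutathione synthesis, and CHAC1, which degrades glutathione. In both, the region covered the canonical start. The thioredoxin list (17 genes) had gained regions over the starts of TXN (chromosome 9, 110255183 to 110257689), PRDX5 and SESN2. GLRX had 3 gained regions, all away from its start. By the 100 kb rule, mitochondrial TXN2 had 7 lost and 2 gained regions, none within 2500 bp of its 5′ ends. The gene is 14.6 kb long, and its nearest lost region lay 12860 bp from the canonical 5′ end. The share of protein-coding genes with as many lost regions is not given here.

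For the supply of NADPH (8 genes), gained regions lay over the start of PGLS (3 gained in all), an enzyme of the pentose phosphate pathway, and near an inner transcript start of TKT, which acts in the same pathway. In the haem and iron list (11 genes), both ferritin genes had 2 gained regions within 2500 bp of the start. Those of FTH1 were part of 5 gained regions, beside 2 lost ones, and those of FTL of 6. Together these regions at FTL spanned chromosome 19 from 48962015 to 48965763 without a gap. The share of genes with lost regions was highest in this list (5 of 11 genes, against 21.6% of protein-coding genes). None of these regions lay within 2500 bp of a transcript 5′ end.

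The list of superoxide and peroxide removal (10 genes) had gained regions at MSRA and at the outer 5′ end of SOD2, 66826 bp upstream of its canonical one. Whether the SOD2 region also covers the start of a neighbouring gene is not given here. Quinone, aldehyde and xenobiotic genes (21 genes) were the only ones with lost regions at 5′ ends (3 genes, against 3.37% of protein-coding genes). NQO2, the paralog of NQO1, had a lost region over the outer 5′ end of the gene (chromosome 6, 2986978 to 2989784), 10110 bp upstream of the canonical one, and a gained region 22913 bp from the canonical one. The carbonyl reductase gene CBR3 had a lost region over its canonical start (chromosome 21, 36134443 to 36136886). ABCC1, a transporter of glutathione conjugates, had 3 lost regions, 1 of them at an inner transcript start, whereas ABCC2 had 2 gained regions, the nearer ending 1937 bp before its start.

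**Figure D5:**
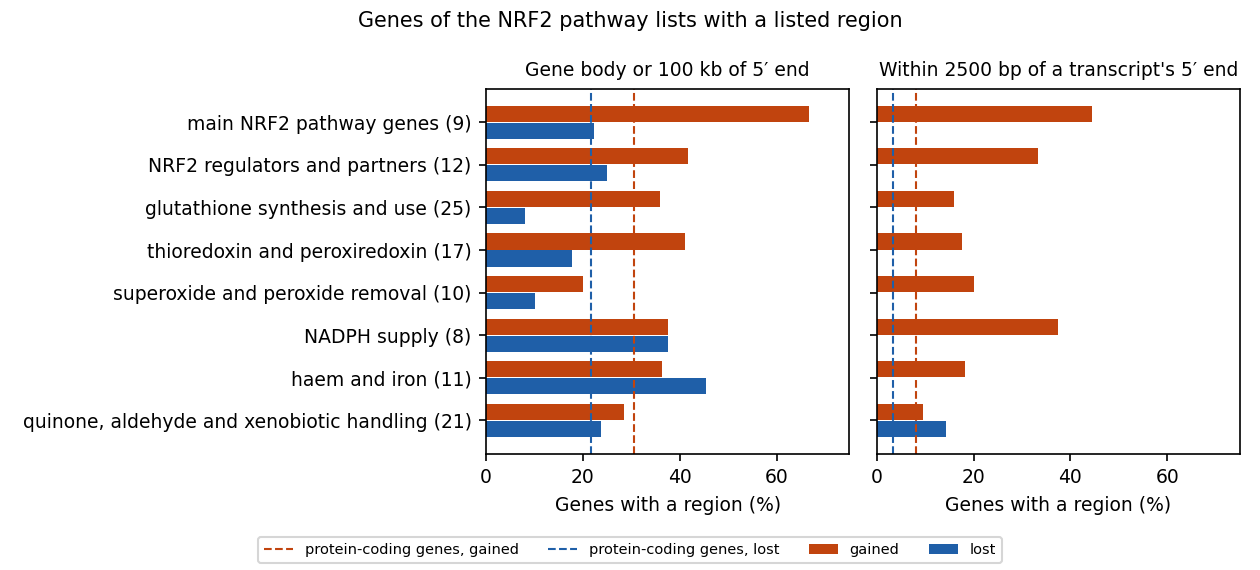
Share of genes (x axis, %) with a gained (orange) or lost (blue) region in the 9 genes and in 7 further pathway lists, with the number of genes in parentheses, within the gene body or 100 kb (left) and within 2500 bp of a transcript 5′ end (right). Dashed lines give protein-coding genes, and in the right panel blue bars appear only for quinone, aldehyde and xenobiotic genes.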

How the data were processed

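According to the study's methods, the authors used Chromap for alignment to hg38, called peaks per H3K27ac library against input with MACS2 (version 2.1.1.20160309 in the submitters' processing notes), cut wide peaks into bins and compared the arms with MAnorm2. Wide domains can therefore appear as abutting regions. The deposited lists have 3 columns (chromosome, start, end). The adjusted p in their names is 0.15, and the methods text states a stricter one. Sequencing depth behind a region is unknown.

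Starts were converted to count from 1. Genes came from GENCODE release 44, and protein-coding genes on the autosomes, X and Y formed the background. Motifs were searched on both strands of hg38. Assignment and motif search were tested on simulated data. Python 3.11.15, pandas 2.3.3 and scipy 1.17.1 were used. The 9 genes and the pathway lists were chosen with earlier results of these data known. All 9 genes are named, and of the other pathway genes those with a region within 2500 bp of the gene's 5′ end or at least 3 regions by the 100 kb rule. KEAP1 and CUL3 are named in addition, and 1 gene that met the rule is not reported here. No test was made, for want of replicate values.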

Additional observations from a re-analysis of the deposited data

How the results depend on the processing

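No paired analysis was possible because the files give region positions, with no value per replicate. Leaving out replicates and a stricter threshold were not run for the same reason. Of 54 values computed under an alternative, 33 stayed within 1.5 times the main count or, for shares, within its 95% interval, and 21 moved. With regions of the same direction merged where they lay within 1000 bp, 14 gained and 2 lost were left at the 9 genes. With 2500 bp around the gene's 5′ end and no gene body, 3 gained regions at 2 of the 9 genes and 0 lost regions at 0 genes were left. With 2500 bp around any transcript's 5′ end, there were 8 gained and 0 lost regions. That alternative was chosen after seeing the data, as were the canonical 5′ end (19 gained, 2 lost), the window without the gene body (15 and 2) and the regions for which a gene of the 9 was the nearest protein-coding one (13 gained, and 1 lost at 1 gene). In each alternative named so far in this paragraph, gained regions outnumbered lost ones at the 9 genes, but these alternatives share most of their regions. Within 1000 kb of the canonical 5′ ends, lost regions were the more numerous (41 gained and 45 lost). The share of protein-coding genes with a gained region was 20.7% at 50 kb, 6.39% at 2500 bp of the gene's 5′ end, 8.21% at 2500 bp of any transcript, 32.5% with the 5′ ends of all transcripts, 29.5% without the gene body and 23.5% over all annotated genes. With a lost region, it was 13.9%, 1.96%, 3.37%, 23.2%, 20.4% and 17.9% in the same order.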
